A study of Rattus norvegicus with 11 samples.

Results

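In the corpora quadrigemina of 3 rat strains, 6 genes are described here of the 32883 listed. Each had reads in nearly every rat of a strain and few or no reads in another strain. These genes are AABR07000733.1 (ENSRNOG00000058047), Rpl30l1 (ENSRNOG00000057677), AABR07053166.1 (ENSRNOG00000029262), RGD1562420 (ENSRNOG00000005826), RGD1359290 (ENSRNOG00000027271) and ENSRNOG00000058238, for which the study's gene table gives no symbol. They were chosen by their counts in these same rats, so their levels are described here without a test. They are not all the genes with such a pattern, and 4 others met a strict split by counts that is given below. The corpora quadrigemina are the paired inferior and superior colliculi of the midbrain roof, where audiogenic seizures, those set off by loud sound, begin.

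Messenger RNA was sequenced from 11 male rats aged 4 months, all of Wistar origin by their labels. The 3 KM rats belong to an inbred strain, prone to audiogenic epilepsy, that was selected from Wistar rats. The 4 W rats are outbred Wistar rats and serve as the wild type. The 4 O rats come from the “0” strain, bred from hybrids of KM and Wistar rats, with backcrosses to KM, for a lack of seizures, and are labelled less prone to audiogenic epilepsy. According to the methods, rats of all 3 strains heard the test sound 4 days before the tissue was taken. The study still treats the profiles as those without sound, and W or O rats that responded with seizures were left out. KM rats had also been tested at the age of 3 months, and O rats 3 times at that age. The methods record tonic convulsions of the highest intensity in KM rats. Sound and seizure history thus differs by strain and cannot be told apart from it. The O strain is still under selection and W is outbred, so rats of these 2 strains need not share a genotype. Nothing in the labels pairs the rats or names a batch.

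Each library held 10545964 to 15140180 reads on genes, and values are given as counts and as CPM, counts per 1000000 of these reads. A gene with 3 counts in one rat, taken as the floor of detection in that rat, had 0.198 to 0.284 CPM depending on the rat. Intervals and floors cover counting error only. The rat KM 3 stood apart in genes of the choroid plexus, the tissue that makes cerebrospinal fluid. Its CPM was 7179 for Ttr, 36.3 for Kcne2 and 90.2 for Folr1, against at most 43.6, 3.50 and 10.9 in the other rats, and these were all 3 of the choroid plexus markers listed. In the rat O 3 the 10 most abundant genes held 29.2% of the reads, against 7.94% to 19.0% in the others. Of 28 markers listed for cell types and brain regions, the study's gene table, which pairs 1763 identifiers with symbols, named 6. Among these the astrocyte gene Gfap had at least 994 CPM in every rat, while the listed markers of the midbrain roof could not be checked.

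The names of RGD1359290 in RefSeq and of Rpl30l1 point to copies of ribosomal protein genes. Such copies are common in mammals, because the abundant messenger RNA of such a gene can be copied back into DNA and inserted elsewhere as an intronless copy. Most of these copies are pseudogenes, which carry no intact function, and some are transcribed. Short reads from a recent copy and from its source gene can be hard to tell apart, so the assignment of reads between them is uncertain.

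RefSeq, in its GRCr8 rat assembly, matched 2 of the 6 genes by symbol or older symbol. RGD1359290 is listed there as Rpl17-ps16, a pseudogene that lies within the span of the protein-coding gene Pitpnc1. Its source by name is Rpl17, a protein of the large ribosomal subunit, for which the same table names 16 copies, 14 of them pseudogenes. Rpl30l1 is listed as protein-coding. It is one of 15 named copies of Rpl30, another protein of the large subunit, and 11 of these copies are pseudogenes. AABR07000733.1, AABR07053166.1, RGD1562420 and ENSRNOG00000058238 were not matched. The files use the older assembly Rnor_6.0, so no positions are set beside the counts.

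Only Rpl30l1 had a sequence around its start in the reference, and it is shown because reads of this gene were present in both KM and O rats and absent in W rats. The window covers 250 bases before and 50 bases from the annotated start, chr13:91813735-91814034 on the plus strand of GRCr8, from RefSeq. Capitals mark the letters TATAAA and the ATG at the annotated start.

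Rpl30l1: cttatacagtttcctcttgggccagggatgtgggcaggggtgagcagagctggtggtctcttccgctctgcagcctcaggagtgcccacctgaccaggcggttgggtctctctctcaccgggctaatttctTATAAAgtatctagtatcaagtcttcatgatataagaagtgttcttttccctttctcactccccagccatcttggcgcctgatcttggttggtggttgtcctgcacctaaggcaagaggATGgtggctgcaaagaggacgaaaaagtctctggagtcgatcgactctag

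The ATG fills bases 251 to 253 of this window, so the annotated gene opens with it. Distances in this window are thus to the ATG, and those to a transcription start are not known. TATAAA was found once on the plus strand, starting 119 bases before the start, and not on the minus strand. On either strand it occurs in 4760 of 33469 such windows, or 14.2%. This is the sequence of the reference rat and not of the KM, O or W rats.

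The 6 genes fell into 4 patterns over the strains. AABR07000733.1 and Rpl30l1 had reads in KM and O rats and almost none in W rats. AABR07053166.1 and RGD1359290 had reads in KM and W rats and almost none in O rats. RGD1562420 was high in KM rats alone, with low counts in both other strains. ENSRNOG00000058238 was high in W rats alone, with at most 3 counts in any other rat. None of the 6 was high in O rats alone. In bulk tissue, fewer cells that carry a transcript and less transcript per cell cannot be told apart.

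**Figure D1:**
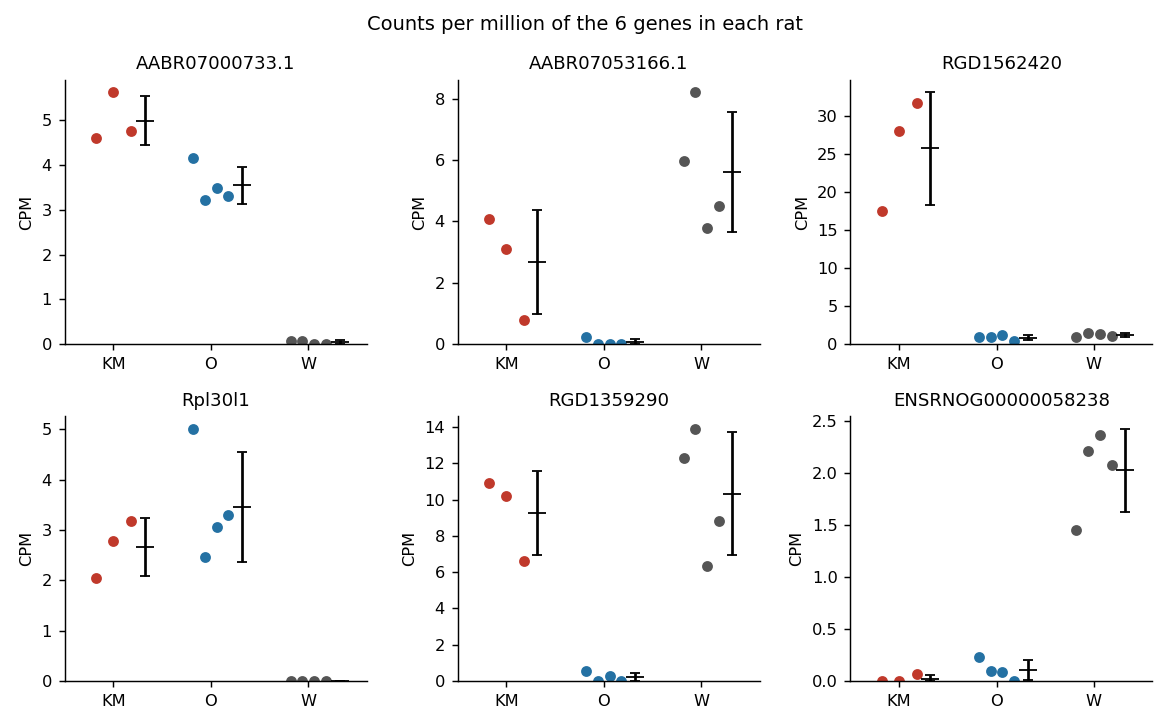
CPM of each of the 6 genes in every rat (points), with the mean and SD of the strain beside them (bars, lower ends cut at 0), for 3 KM, 4 O and 4 W rats. The left column holds the genes near 0 in W rats, the middle column those near 0 in O rats, and the right column the genes high in KM or in W rats alone.

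AABR07000733.1 had 54, 65 and 72 counts in KM rats, 54, 34, 39 and 45 in O rats, and 1, 1, 0 and 0 in W rats. KM rats had a mean of 4.995 ± 0.552 CPM (SD, n = 3), O rats one of 3.55 ± 0.423 CPM (SD, n = 4) and W rats one of 0.0399 ± 0.0461 CPM (SD, n = 4). All 7 KM and O rats stood far above every W rat. With only 2 counts in the 4 W rats together, the pooled ratio of KM to W was 121 with a counting interval from 32.9 to 1002, and that of O to W was 86.3 with an interval from 23.5 to 719. Between KM and O the pooled ratio was 1.40, with an interval from 1.13 to 1.73. The lowest KM rat had 4.60 CPM and the highest O rat 4.16 CPM, but with TMM-scaled library sizes, where KM 3 had 4.25 and O 3 had 4.29 CPM, these 2 strains overlapped. The fitted log2-fold change of KM vs O was 0.37 (standard error 0.26).

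Rpl30l1 had 24, 32 and 48 counts in KM rats and 65, 26, 34 and 45 in O rats. It had 0 counts in all 4 W rats, and was set against a floor of 3 counts in their 48490336 reads together. KM rats had a mean of 2.66 ± 0.570 CPM (SD, n = 3) and O rats one of 3.46 ± 1.09 CPM (SD, n = 4). This floor is taken over the 4 W libraries and not per rat. The pooled ratio of Rpl30l1 to it was 43.7 in KM rats and 56.9 in O rats. These ratios leave out the counting error of the KM and O counts, so they are not lower limits of an interval. The ranges of KM and O overlapped, with a pooled ratio of O to KM of 1.30 (counting interval 1.01 to 1.68) and a fitted log2-fold change of KM vs O of −0.50 (standard error 0.33). Among O rats, O 1 stood highest at 5.003 CPM. Its 65 counts have an exact Poisson interval from 50.2 to 82.8, which does not meet that of the 26 counts of O 2, from 17.0 to 38.1.

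AABR07053166.1 had 48, 36 and 12 counts in KM rats, 3, 0, 0 and 0 in O rats, and 74, 104, 45 and 52 in W rats. KM rats had a mean of 2.67 ± 1.69 CPM (SD, n = 3), O rats one of 0.0577 ± 0.115 CPM (SD, n = 4) and W rats one of 5.62 ± 1.95 CPM (SD, n = 4). All O counts came from O 1. With 3 counts in the O rats together, the pooled ratio of W to O was 91.3 (counting interval 30.9 to 446) and that of KM to O was 40.2 (13.4 to 198). The 12 counts of KM 3 have a Poisson interval from 6.20 to 21.0, well below the 35.4 to 63.6 of KM 1, although KM 3 had the largest library. KM and W rats overlapped, with a fitted log2-fold change of KM vs W of −1.16 (standard error 0.52). Without KM 3 this was −0.69 (standard error 0.34).

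RGD1359290, the Rpl17 copy, had 128, 118 and 100 counts in KM rats and 152, 176, 75 and 102 in W rats. The O rats had 7, 0, 3 and 0. KM rats had a mean of 9.24 ± 2.31 CPM (SD, n = 3), W rats one of 10.3 ± 3.41 CPM (SD, n = 4) and O rats one of 0.202 ± 0.258 CPM (SD, n = 4). No O rat came near the lowest W rat at 6.32 CPM or the lowest KM rat at 6.60 CPM. The pooled ratio was 50.3 for W to O (counting interval 27.1 to 106) and 43.5 for KM to O (23.4 to 91.5). KM and W rats overlapped, with a fitted log2-fold change of −0.24 (standard error 0.30). Leaving out O 1, which held 7 of the 10 counts, raised the fitted log2-fold change of KM vs O from 5.31 (standard error 0.73) to 6.49 (standard error 0.78).

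The low counts in O rats were not spread evenly. Over AABR07053166.1, RGD1359290 and ENSRNOG00000058238, O rats had 18 counts in all, of which 13 were in O 1, 4 in O 3, 1 in O 2 and 0 in O 4. O 1 had the highest CPM of the O rats for all genes but RGD1562420, and with TMM scaling O 3 was also above O 1 for AABR07000733.1, at 4.29 against 4.26 CPM. Its library of 12992512 reads was not the largest of the O rats.

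AABR07053166.1 and RGD1359290 had the same order by CPM among the rats that had their reads. In W rats both were highest in W 2, then W 1, W 4 and W 3. In KM rats both were highest in KM 1, then KM 2 and KM 3. For both genes the Poisson intervals of the counts overlapped between KM 1 and KM 2, between W 1 and W 2, and between W 3 and W 4. The order within these pairs of rats is thus not resolved. W 1 and W 2 had 5.98 and 8.20 CPM of AABR07053166.1, against 3.79 and 4.49 CPM in W 3 and W 4. RGD1359290 had 12.3 and 13.9 CPM in the first pair and 6.32 and 8.81 CPM in the second. The share of reads outside annotated genes was 20.1% and 21.7% in W 1 and W 2 and 17.6% and 16.5% in W 3 and W 4. It was 21.5% in KM 1, 19.8% in KM 2 and 19.3% in KM 3, which is the order of both genes. It was 22.7% in O 4, which had no count of either gene. Alas2 is the haem synthesis enzyme of red cell precursors and the only erythrocyte marker matched of 3 listed. It was lowest in O rats (21.0 to 35.9 CPM), between in KM rats (33.4 to 61.4 CPM) and highest in W rats (52.4 to 134 CPM). By rat it had 85.6, 65.7, 52.4 and 134 CPM in W 1 to W 4. In KM 1 to KM 3 it had 58.4, 61.4 and 33.4 CPM. Within the strains it was lowest in KM 3 and W 3, as were the 2 genes, and highest in KM 2 and W 4, where the 2 genes were not. The part of either measure in these levels was not tested.

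**Figure D2:**
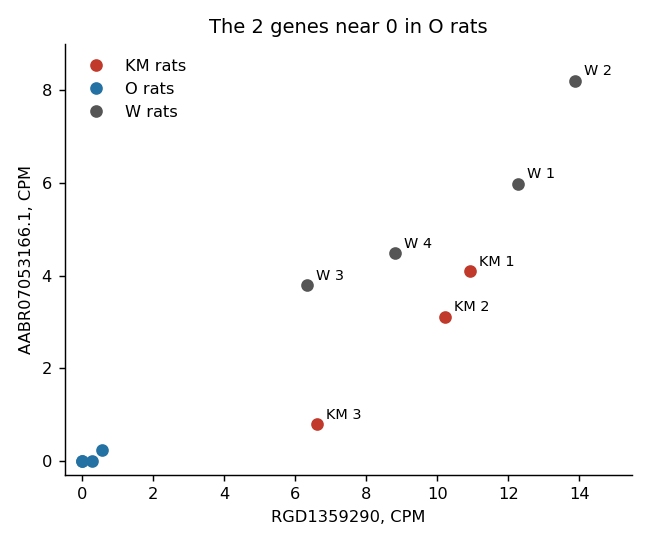
CPM of AABR07053166.1 against CPM of RGD1359290 in each of the 11 rats, coloured by strain, with KM and W rats named. The 4 O rats lie at or near the origin, none above 0.539 CPM of RGD1359290 or 0.231 CPM of AABR07053166.1, and within KM and within W the rat higher in one gene was higher in the other. Some neighbouring rats in this order lie within counting error of each other.

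RGD1562420, which the study's table describes only as similar to a hypothetical protein, had 205, 324 and 480 counts in KM rats. It had 12, 10, 14 and 5 counts in O rats and 12, 19, 16 and 13 in W rats. KM rats had a mean of 25.7 ± 7.39 CPM (SD, n = 3), O rats one of 0.874 ± 0.370 CPM (SD, n = 4) and W rats one of 1.24 ± 0.235 CPM (SD, n = 4). Unlike the genes above, it was thus detected above the floor in all 11 rats. The lowest KM rat, at 17.5 CPM, was more than 10 times the highest of the other rats, at 1.499 CPM. The pooled ratio was 30.9 for KM to O (counting interval 22.6 to 43.4) and 21.2 for KM to W (16.3 to 28.0). O and W rats overlapped, with a ratio of W to O of 1.46 and an interval from 0.964 to 2.22. Within KM the Poisson intervals of KM 1, 178 to 235 counts, and KM 3, 438 to 525 counts, were apart, and the CPM of these rats were 17.5 and 31.7. KM 3 was also the rat with the high choroid plexus markers. Without it the fitted log2-fold change was 4.14 (standard error 0.27) for KM vs W and 4.63 (standard error 0.44) for KM vs O, beside 4.26 (standard error 0.25) and 4.74 (standard error 0.41) with all rats.

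ENSRNOG00000058238 had 18, 28, 28 and 24 counts in W rats. In KM rats it had 0, 0 and 1 counts, and in O rats 3, 1, 1 and 0. W rats had a mean of 2.02 ± 0.397 CPM (SD, n = 4), KM rats one of 0.0220 ± 0.0381 CPM (SD, n = 3) and O rats one of 0.104 ± 0.0952 CPM (SD, n = 4). Every W rat was above all 7 others. The pooled ratio of W to KM was 77.7, but with 1 count in KM its counting interval ran from 13.6 to 3098. The ratio of W to O was 19.5, with an interval from 8.09 to 61.5. KM and O could not be separated at this depth, with 1 and 5 counts in all, and in that comparison the gene did not reach the mean of 1 CPM needed for the fit.

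In KM vs W the CPM of the strains did not overlap in 4 of the 6 genes, beside 12.3% of the 13721 genes tested. In KM vs O this was so in 4 of the 5 that could be tested, or 3 with TMM scaling, beside 4.71% of 13686 genes. In O vs W it was so in 5 of the 6, beside 3.82% of 13630 genes. These are the contrasts on which the genes were chosen.

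A stricter split was counted over all genes, with at least 10 counts in every rat of one strain and at most 3 in every rat of the other. From KM to W it was met by 3 genes, 0.0224% of the 13400 genes with at least 10 counts in every KM rat. These were AABR07000733.1, Rpl30l1 and Itih2, which encodes a heavy chain of a blood protease inhibitor and had 31, 33 and 12 counts in KM and 1, 0, 0 and 2 in W rats. From KM to O it was met by 2 genes or 0.0149%, AABR07053166.1 and the vomeronasal receptor gene Vom2r44, which had 71, 55 and 20 counts in KM and 0, 2, 2 and 1 in O rats. From O to W it was met by 3 of 13045 genes or 0.023%, AABR07000733.1, Rpl30l1 and an unnamed gene. From O to KM it was met by 0 genes, or 0.0% of the same 13045. From W to KM it was met by 2 of 13155 genes or 0.0152%, ENSRNOG00000058238 and an unnamed gene, and from W to O by 2 or 0.0152%, AABR07053166.1 and ENSRNOG00000058238. Over the 6 directions there were thus 12 cases in 8 genes, and 8 of the cases belonged to 4 of the genes described here. RGD1359290 fell outside the split through the 7 counts of O 1, and RGD1562420 through its low but steady counts in O and W rats.

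**Figure D3:**
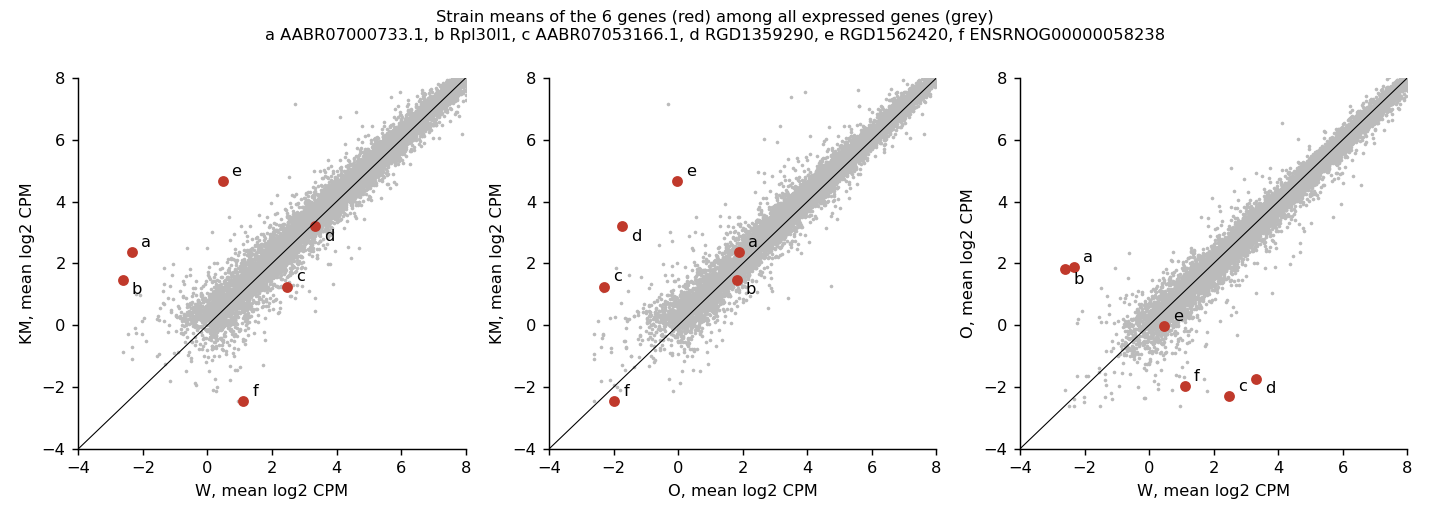
Mean log2 CPM (prior count of 2) of each pair of strains for the 6 genes (red, lettered) among all genes with a mean of at least 1 CPM in one strain (grey), with the line of equal means and axes ending at 8. Each of the 6 lies far from the line in at least one panel and within the grey cloud, or near the line, in another.

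The profiles over the 11 rats were set against those of 14004 genes with a mean of at least 1 CPM in at least one strain. Likeness was measured as the root mean square difference of log2 CPM after subtraction of each gene's mean, where 0 is an identical profile. Rpl30l1 and AABR07000733.1 were each other's nearest gene at 0.41, and RGD1359290 and AABR07053166.1 were each other's nearest at 0.75. The genes of each pair were chosen by their counts in these same rats and share near absence in the same strain. That shared drop enters the distance, so their nearness was largely fixed by the choice and shows no link between them. The genes next nearest to Rpl30l1 included RT1-A1, a class I histocompatibility gene, at 0.96, with 93.9 to 120 CPM in KM, 81.1 to 120 CPM in O and 10.7 to 23.2 CPM in W rats. Nearest to ENSRNOG00000058238 was RT1-A2, another class I gene, at 0.64, with 3.92 to 5.15 CPM in KM, 3.89 to 4.93 CPM in O and 13.4 to 28.0 CPM in W rats. Nearest to RGD1562420 was Vom2r44 at 0.97, followed at 1.15 by Lmx1a, a transcription factor of the roof plate and of midbrain dopamine neurons. Lmx1a had 3.46 to 9.38 CPM in KM, 0.853 to 1.92 CPM in O and 0.590 to 1.03 CPM in W rats. Itih2 was near AABR07000733.1 at 0.97. Next nearest to both AABR07053166.1, at 1.23, and RGD1359290, at 1.36, was the integrin gene Itga11. The gene Lgals5 lay about as near to AABR07053166.1, at 1.24. It had 1.52 to 6.31 CPM in KM, 1.03 to 2.66 CPM in O and 8.84 to 19.6 CPM in W rats.

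The source genes of the named copies did not follow the copies' present and absent pattern. Rpl17 had 130, 144 and 71.1 CPM in KM rats, 378, 285, 309 and 200 CPM in O rats, and 168, 179, 243 and 332 CPM in W rats. It was thus well expressed in the O rats that nearly lacked RGD1359290 reads, and every KM rat was below every O and W rat. The log2-fold change of Rpl17 was −1.48 in KM vs O (standard error 0.34, unadjusted p = 0.00192, adjusted p = 0.572 from edgeR's quasi-likelihood test) and −1.11 in KM vs W (standard error 0.35, unadjusted p = 0.0126, adjusted p = 0.364). In O vs W it was 0.37 (standard error 0.30, adjusted p = 0.951). The choroid plexus outlier KM 3 was the lowest KM rat, and without it the log2-fold change was −1.19 in KM vs O and −0.83 in KM vs W, each with a standard error of 0.32.

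Rpl30 had 21.9, 32.9 and 29.1 CPM in KM rats, 36.2, 21.2, 25.6 and 27.2 CPM in O rats, and 12.3, 21.4, 7.67 and 13.8 CPM in W rats. It was lowest in the strain without Rpl30l1 reads, but was read in every W rat. Its log2-fold change was 0.92 in KM vs W (standard error 0.30, unadjusted p = 0.0144, adjusted p = 0.372 from edgeR's quasi-likelihood test) and 1.02 in O vs W (standard error 0.29, unadjusted p = 0.00543, adjusted p = 0.405). In KM vs O it was −0.10 (standard error 0.23, adjusted p = 0.988). Neither source gene passed an adjusted p of 0.05 with edgeR in any comparison, while DESeq2's Wald test called Rpl17 in KM vs O at a log2-fold change of −1.50. With edgeR it was passed by 0.0656% of genes in KM vs W, 0.0146% in KM vs O and 0.11% in O vs W. An unadjusted p under 0.05 was found for 10.9%, 3.65% and 6.69% of genes.

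The share of the copy in the reads of copy and source together was then taken, since reads may pass between these rows. RGD1359290 held 7.77%, 6.63% and 8.50% of its reads with Rpl17 in KM rats. In W rats it held 6.80% and 7.19% in W 1 and W 2 and 2.54% and 2.58% in W 3 and W 4. The 95% Wilson intervals of the first pair, 5.83% to 7.92% and 6.23% to 8.28%, were apart from those of the second, 2.03% to 3.17% and 2.13% to 3.12%. In O rats the share was at most 0.142%. Rpl30l1 held 8.54%, 7.77% and 9.82% of its reads with Rpl30 in KM rats and 12.1%, 10.4%, 10.7% and 10.8% in O rats, and the intervals of all 7 rats overlapped. In W rats it was 0 of 152, 271, 91 and 160 reads, which leaves room for shares of up to 2.46%, 1.40%, 4.05% and 2.34% by Wilson intervals.

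The CPM of copy and source were also added. RGD1359290 held at most 8.50% of the sum with Rpl17 in any rat, so that this sum follows Rpl17 and does not bear on the pattern of the copy. The sum of Rpl17 and RGD1359290 averaged 124 ± 40.7 CPM in the KM rats (SD, n = 3), 293 ± 73.8 CPM in the O rats (SD, n = 4) and 241 ± 73.1 CPM in the W rats (SD, n = 4), and every KM rat, at most 154 CPM, was below every O and W rat, at least 181 CPM. The sum of Rpl30 and Rpl30l1 averaged 30.6 ± 6.03 CPM in the KM rats (SD, n = 3), 31.0 ± 7.36 CPM in the O rats (SD, n = 4) and 13.8 ± 5.69 CPM in the W rats (SD, n = 4). With the copy added, every KM and O rat, at least 23.7 CPM, was above every W rat, at most 21.4 CPM. Rpl30 alone overlapped between O and W, by 21.2 against 21.4 CPM, and did not with TMM scaling. Rpl30l1 was chosen for its lack of W reads, so adding it could only raise the KM and O rats. What the copy adds to the separation was thus fixed by the choice of the gene. The sums were not tested.

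**Figure D4:**
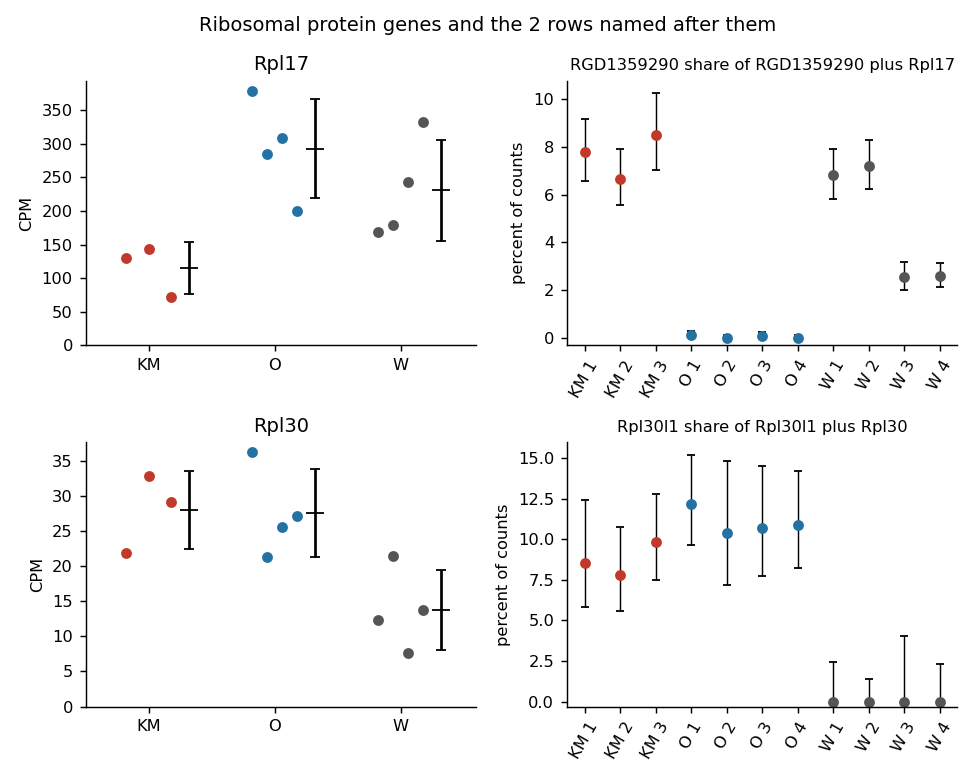
Left, CPM of Rpl17 and Rpl30 in each rat with the mean and SD of the strain. Right, the percentage of copy and source reads that were counted on the copy in each rat, with 95% Wilson intervals, which was near 0 in O rats for RGD1359290 and in W rats for Rpl30l1 and fell into a higher and a lower pair among W rats for RGD1359290.

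The 27 cytosolic ribosomal protein genes that the study's table names besides Rpl30l1, with Rpl17 and Rpl30 among them, were also examined. That table holds genes the study called as differing in these rats, so the list is no independent sign of a direction. At an unadjusted p under 0.05, KM vs W gave 2 higher and 21 lower, KM vs O gave 1 higher and 1 lower, and O vs W gave 2 higher and 0 lower. In edgeR 0 had an adjusted p under 0.05. Their median log2-fold change was −0.51 in KM vs W, −0.29 in KM vs O and −0.18 in O vs W, beside 0.01, 0.01 and −0.01 over all genes tested. Rpl30 was thus among the few of this list on the higher side in KM vs W, and Rpl17 among the many on the lower side. The 1 lower in KM vs O was Rpl17 itself, and Rpl30 was 1 of the 2 higher in O vs W.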

How the data were processed

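RNA of 3 KM, 4 O and 4 W rats was read as single ends of 75 bp from poly(A) libraries made with a directional kit. By the methods and the submitters' processing notes, the authors trimmed reads with Trimmomatic, mapped them to Rnor_6.0 with STAR and counted them per Ensembl gene with HTSeq, and deposited whole-number counts without normalization. Tool versions, the strand setting and the treatment of reads that map to several places are not given in the sources used here, and the deposited row for such reads holds 0. Reads outside genes made up 16.5% to 22.7% and ambiguous reads 1.44% to 2.36% of the reads listed. RGD1359290 lies within Pitpnc1 in GRCr8, and such overlapping genes are uncertain without the strand setting.

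The strain of each rat was taken from its title. Symbols come from the study's gene table. CPM was computed on the reads counted on genes. The 3 pairs of strains were each fitted with R 4.3.3 and edgeR 4.0.16 (TMM factors, quasi-likelihood F-test, mean CPM of at least 1, Benjamini-Hochberg adjustment over all genes tested), and DESeq2 1.42.0 was an alternative. The procedure was tested only on simulated KM and W counts with the same dispersion for every gene. Near absence in a strain was not simulated, so this is no check of the 6 genes. Nothing says that the rats shared litters or days. The p-values set a strain difference against the spread between these rats, which was estimated with information shared over genes. Ratios of strains were pooled counts over pooled reads with exact conditional intervals at the 95% level. The genes and lists were chosen with earlier results of these data known. Text names the 6 genes, Rpl17 and Rpl30, up to 3 nearest profiles for each gene, and up to 3 split genes per direction. Markers are named where they bear on a rat, some items are not reported here, and the TATAAA motif was chosen after the sequence was read.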

Additional observations from a re-analysis of the deposited data

Results flagged for a closer look

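Of 19 groups of 4 rats examined among the 6 genes, their source genes and the sums, 1 held a value set apart from the rest by Dixon's criterion. Chance sets apart about 1 in 20 groups of continuous values, but here the other rats are tied at 0, so that any count in 1 rat would have been set apart and this rate does not apply. AABR07053166.1 had 0.231 CPM in O 1 and 0 in the other O rats. This stands for 3 counts, with an exact Poisson interval from 0.619 to 8.77.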

How the results depend on the processing

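No difference between strains whose ranges did not overlap changed direction. In 13 such differences of the 6 genes, 0 of 163 fitted values under the alternatives had the opposite sign. Fits in which a gene failed the filter gave no value. The genes were chosen for their differences, and ranges that do not overlap keep their order when a rat is left out. This outcome was thus largely fixed in advance. Fitted sizes of genes with few counts in one strain moved most, and without O 1 AABR07053166.1 went from −6.28 to −9.07 in O vs W and from 5.14 to 8.01 in KM vs O, while ENSRNOG00000058238 went from −5.93 to −7.63 in KM vs W without KM 3. The number of genes called in each comparison depended more on the choices made. At an adjusted p under 0.05, KM vs W gave 9 genes with edgeR, 147 with DESeq2's Wald test, 17 without a filter, 19 in one fit of all 11 rats, and 1 to 14 without single rats. KM vs O gave 2, and by the same alternatives 40, 7, 4 and 0 to 5. O vs W gave 15, then 119 with DESeq2, 28 without a filter and 1 to 20 without single rats. The lowest of these adjusted counts came without KM 2 or W 1 in KM vs W, KM 2 or O 2 in KM vs O, and O 2 in O vs W. At an unadjusted p under 0.05, KM vs W gave 1497 genes and 954 to 1831 without single rats, the fewest without W 1. KM vs O gave 500, 777 without a filter, and 280 to 921 without single rats, the fewest without O 3 (295 without KM 1) and the most without KM 3. The replicate number as a block gave 781 genes in KM vs O, 5 at an adjusted p under 0.05 in KM vs W, and 0 in O vs W, where edgeR still gave 804 at an unadjusted p under 0.05. Deviations of same-numbered rats correlated across genes at −0.0474, 0.120 and 0.00848 on average in KM vs W, KM vs O and O vs W, with the lowest pair at −0.180, 0.0579 and −0.579, and only 1 of 3, 1 of 3 and 1 of 4 rats correlated best with its own number. The rats thus share only a number. For the split of at least 10 against at most 3 counts, a minimum of 20 gave 1 gene from KM to O, 0 from W to KM and 1 from W to O, so that AABR07053166.1 lost the split from KM to O and ENSRNOG00000058238 lost both of its own. With 5 against at most 1, the split was met by 1 gene from KM to O and 1 from W to O, and neither is among the 6 genes, since AABR07053166.1 and ENSRNOG00000058238 had 3 counts in O 1. Without single rats the split gave 2 to 5 genes from KM to O and 3 to 5 from KM to W. It gave 0 to 1 from O to KM, 2 to 4 from W to KM and 2 to 5 from W to O. Without O 1, RGD1359290 entered both the split from KM to O and that from W to O. The cause of these shifts was not tested. The depth leaves values under 3 counts unresolved.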
